A study of Danio rerio with 9 samples.

Results

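The genes described here belong to the unfolded protein response of the endoplasmic reticulum (ER) and to the amino acid arm of the integrated stress response. They were hspa5, hsp90b1, hyou1, pdia4, xbp1, ppp1r15a, atf4b, asns and mthfd2, 9 genes of the 8793 with a probe set of their own on the array. Every probe set that the platform annotation assigns to exactly 1 gene, and to one of these, was taken, which gave 13 probe sets of 15617. The genes were chosen by their signals at 50 µg/L pentachlorophenol against water, which were already known, so that comparison is a description for them, and nothing is read from whether they pass the fit's threshold in it. The comparison of 20 µg/L with water was tested, though it uses the same water arrays and so is not independent of that choice. All 9 genes and all 13 probe sets passed the filter on low signals, the dimmest probe set of ppp1r15a and the dimmer one of asns only through the group where each was highest.

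Total RNA came from whole wild-type Tuebingen zebrafish gastrulae, aged about 8 h from fertilisation, and was hybridised to Affymetrix arrays. Embryos had been exposed to deionized water, to 20 µg/L or to 50 µg/L pentachlorophenol, with 3 arrays for each. Pentachlorophenol is a wood preservative and pesticide that uncouples mitochondrial respiration from ATP synthesis. The labels call the arrays of a group biological replicates 1 to 3 and do not give the number of embryos in a sample or say whether clutches were separate, so every p-value reflects the spread among these particular samples and nothing wider. In whole embryos, fewer cells of a type and less RNA per cell cannot be told apart.

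The ER folds secreted and membrane proteins with the help of chaperones such as the Hsp70 protein BiP. When unfolded proteins collect there, the sensors Perk, Ire1 and Atf6 start the unfolded protein response, which raises transcription of chaperone genes. Perk is also a kinase of the translation factor eIF2. Phosphorylation of eIF2, which is also the work of other eIF2 kinases that answer to amino acid shortage, haem shortage or double-stranded RNA, slows translation in general while the transcription factor Atf4 is made. In mammals, ATF4 raises genes for amino acid synthesis and transport and the gene of GADD34, which brings the phosphatase back to eIF2. This shared route is called the integrated stress response.

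Median signals of the 9 arrays lay between 97.6 and 151. Signals are linear values that the authors scaled, and the level of a probe set cannot be set against that of another. As a guide to background, each array was given a tag control level, which is the 95th percentile of its 17 probe sets for tag controls. It lay between 50.6 and 114, and was highest on water replicate 3. No gene of a list of 10 gastrula markers was under this level on all 3 arrays of a group, and their summed signal was 36001 to 43052 at 50 µg/L and 29680 to 32278 at 20 µg/L, against 20223 to 28967 in water. Of 11 measured maternal oocyte genes, 9 were tested. At 50 µg/L against water 7 of these rose (limma, adjusted p under 0.05), beside 3.79% of all 6115 genes tested. The marker lists were written with earlier results of these data known, so these counts are a description and not a test of the lists. The call of buc, 1 of the 7, is no support, since it passed the filter on low signals only through its 50 µg/L arrays. The median log2 change of the 9 maternal genes was 2.58, against 0.08 over all genes tested. With the replicate number as a block 6 passed, buc among them, beside 2.34% of all genes. None of the 11 was below the tag control level on all 3 arrays at 50 µg/L, against 2 in water. Their summed signal was 14064 to 30755 at 50 µg/L, against 3681 to 6169 in water, and was 3585 to 4867 at 20 µg/L.

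The 4 ER chaperone genes had higher mean signals at 50 µg/L than in water, with log2 changes from 1.04 to 1.86. With 20 µg/L the change was 0.93 for hsp90b1 and between -0.23 and 0.08 for the other 3. The 4 genes of the integrated stress response did not share a direction at 50 µg/L. In that group ppp1r15a was higher, atf4b and mthfd2 were lower, and the 2 probe sets of asns had opposite signs.

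The gene hspa5 encodes BiP, the main Hsp70 chaperone of the ER. Its signals on replicates 1 to 3 were 886, 1140.1 and 638 in water, 1023, 668 and 1117 at 20 µg/L, and 2738, 2289.9 and 1368 at 50 µg/L. Every 50 µg/L array was above every other array, and the water and 20 µg/L arrays were interleaved. The mean was 2132 ± 698 at 50 µg/L, against 888 ± 251 in water (SD, n = 3 each), a log2 change of 1.24 with a standard error (SE) of 0.33. All log2 changes here are differences of mean log2(signal + 1). Under 20 µg/L the change was 0.08 (SE 0.33, limma adjusted p = 0.960).

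The gene hsp90b1 encodes Grp94, the Hsp90 chaperone of the ER. Its signals were 136, 308 and 162 in water, 285, 422 and 389 at 20 µg/L, and 1205, 412 and 663 at 50 µg/L. The 50 µg/L arrays lay above all water arrays, while their lowest lay between the 20 µg/L arrays, and replicate 1 was far above the rest. The log2 change was 1.86 at 50 µg/L (SE 0.41) and 0.93 at 20 µg/L (SE 0.41). The change at 20 µg/L was not past the threshold (limma adjusted p = 0.621). The 20 µg/L and water arrays overlapped.

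The gene hyou1 encodes Grp170, a large ER chaperone that also acts as a nucleotide exchange factor for BiP. Its signals were 585, 582 and 1152 in water, 538, 547 and 824 at 20 µg/L, and 2285, 1555 and 1941 at 50 µg/L. The 50 µg/L arrays stood apart from all 6 others, and water replicate 3 was the highest of those 6. The log2 change was 1.38 (SE 0.32) at 50 µg/L against water and 1.61 (SE 0.32) at 50 against 20 µg/L. For 20 µg/L against water it was -0.23 (SE 0.32, limma adjusted p = 0.861).

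The gene pdia4 encodes Erp72, a protein disulfide isomerase. Its signals were 335, 222 and 241 in water, 142, 236 and 345 at 20 µg/L, and 670.2, 758 and 310.0 at 50 µg/L. Replicates 1 and 2 at 50 µg/L were above every other array, while replicate 3 was under water replicate 1, so the groups overlapped. The mean was 579 ± 237 at 50 µg/L, against 266 ± 60.4 in water (SD, n = 3 each), a log2 change of 1.04 (SE 0.40). At 20 µg/L the change was -0.21 (SE 0.40, limma adjusted p = 0.912).

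**Figure D1:**
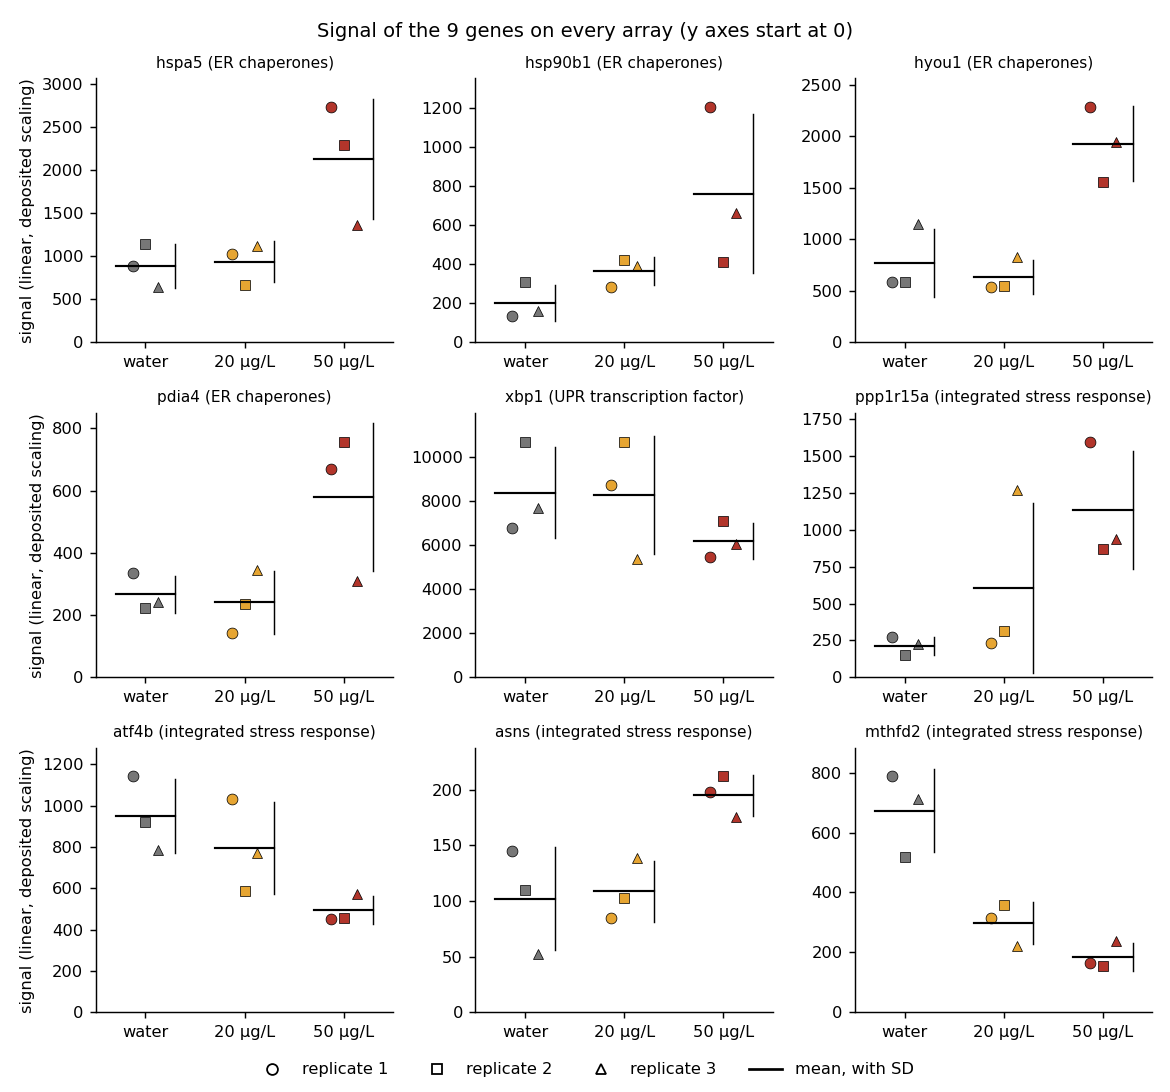
Signals of the 9 genes on each array (linear axes from 0), one panel per gene, in the order water, 20 µg/L and 50 µg/L, with 1 point per array, its shape giving the replicate, a bar at the group mean and a vertical line for the SD (n = 3). The brightest probe set stands for ppp1r15a and asns. The 50 µg/L arrays of hspa5, hyou1 and asns lie above all other arrays, and those of atf4b below all others.

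The mean of the 4 chaperone genes, as log2 difference from the water mean, was 1.83, 1.28 and 1.03 on the 50 µg/L arrays. On the 20 µg/L arrays it was -0.12, 0.05 and 0.49, and on the water arrays it was -0.10, 0.13 and -0.03. The 50 µg/L arrays lay above all others, with the highest 20 µg/L array, replicate 3, still below the lowest of them. The maternal oocyte genes, scored the same way, were at 2.60, 2.16 and 1.53 on the same 50 µg/L arrays, so both scores were highest on replicate 1 and lowest on replicate 3. Their part in the chaperone values was not tested.

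The gene xbp1 encodes the transcription factor whose mRNA Ire1 splices during ER stress, and it is also expressed in the hatching gland in zebrafish. Its signals were 6748, 10673 and 7681 in water, 8712, 10685 and 5369 at 20 µg/L, and 5452, 7066 and 6024 at 50 µg/L. The 3 groups overlapped. The log2 change was -0.42 (SE 0.28) at 50 µg/L and -0.05 (SE 0.28, limma adjusted p = 0.970) at 20 µg/L. A signal of this kind gives the summed transcript, and spliced and unspliced forms were not separated. Of the hatching gland list without xbp1, 3 genes were measured, with a summed signal of 2068 to 3063 at 50 µg/L, against 1940.1 to 2459 in water. The 2 that were tested both had a higher mean at 50 µg/L and neither passed, with a median log2 change of 0.29. Of the 3 measured, 1 was under the tag control level on all 3 arrays at 50 µg/L and 1 at 20 µg/L, against 0 in water.

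The gene ppp1r15a encodes Gadd34, the regulatory subunit that directs protein phosphatase 1 to eIF2. It is covered by 4 probe sets, numbered here by their mean signal from high to low. Probe set 1 read 272, 150.4 and 223 in water, 235, 311 and 1269 at 20 µg/L, and 1598, 866 and 938 at 50 µg/L. Replicate 3 at 20 µg/L was higher than the lower pair at 50 µg/L, whereas the other two 20 µg/L arrays lay near the water arrays. The mean was 1134 ± 403 at 50 µg/L, against 215 ± 61.2 in water (SD, n = 3 each), and the log2 change was 2.38 (SE 0.53).

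The other 3 probe sets of ppp1r15a are described too, and give no separate support, since this comparison chose the gene. Probe set 2 read 113, 125 and 40.3 in water, 122, 170.2 and 811 at 20 µg/L, and 1076, 558 and 713 at 50 µg/L. The log2 changes of probe sets 2, 3 and 4 at 50 µg/L were 3.16, 2.26 and 2.68. These are open to dim water values, since 1, 1 and 2 of the 3 water arrays were under the tag control level. With values under that level raised to it they were 2.68, 1.66 and 1.92. The 50 µg/L and water arrays did not overlap in any of the 4 probe sets, though probe set 4 passed the filter only through its 50 µg/L arrays.

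At 20 µg/L, all 4 probe sets of ppp1r15a were higher on replicate 3 than on the other 20 µg/L arrays. Replicate 3 of every group was exported with more decimals than replicates 1 and 2, and the part of this in its values was not tested. The mean over the 4, as log2 difference from water, was 0.28, 0.70 and 2.82 on the 20 µg/L arrays. It was 0.09, 0.24 and -0.33 on the water arrays, and 3.12, 2.23 and 2.52 on those at 50 µg/L. Dim values were not raised in this mean, which includes probe set 4, kept by the filter only through its 50 µg/L arrays. For probe set 1 the log2 change at 20 µg/L was 1.11 (SE 0.53, limma adjusted p = 0.629), and without 20 µg/L replicate 3 it was 0.37. For probe set 2 it was 1.62 (limma adjusted p = 0.611), or 1.13 with dim values raised. Without 20 µg/L replicate 3 it was 0.79, a value that keeps water replicate 3, which was under the tag control level. With replicate 3 of every group left out, the change was 0.28 for probe set 2 and -0.18 for probe set 3.

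The gene atf4b encodes one of the 2 zebrafish Atf4 proteins, the transcription factors at the centre of the integrated stress response. Its signals were 1142, 923 and 783 in water, 1030.1, 587 and 771 at 20 µg/L, and 453, 456 and 575 at 50 µg/L. All 50 µg/L arrays were below all others. The mean was 494 ± 69.5 at 50 µg/L, against 949 ± 180.5 in water (SD, n = 3 each), a log2 change of -0.93 (SE 0.28). The change at 20 µg/L was -0.27 (SE 0.28, limma adjusted p = 0.812). These are transcript levels, whereas Atf4 is known to be controlled largely at translation. For the paralog atf4a the change at 50 µg/L was -0.60 on the log2 scale (SE 0.43, limma adjusted p = 0.412).

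The gene asns encodes asparagine synthetase, a well known ATF4 target in mammals. Its brighter probe set read 145, 109 and 52.4 in water, 85.0, 102 and 138 at 20 µg/L, and 198, 212 and 175 at 50 µg/L. The 50 µg/L arrays were above all others, and water replicate 3 was under the tag control level. The log2 change was 1.04 (SE 0.40), or 0.68 with values under that level raised to it. The 20 µg/L change was 0.18 (SE 0.40, limma adjusted p = 0.926), a direction that turned to -0.19 with dim values raised.

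The dimmer asns probe set read 145, 55.7 and 78.6 in water, 54.5, 44.3 and 69.6 at 20 µg/L, and 71.0, 48.0 and 83.1 at 50 µg/L. Its groups overlapped, and 1 water array, 3 arrays at 20 µg/L and 2 at 50 µg/L were under the tag control level. Its log2 change at 50 µg/L was -0.38 (SE 0.46), opposite in sign to that of the brighter probe set, so the direction of asns rests on the probe set chosen.

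**Figure D2:**
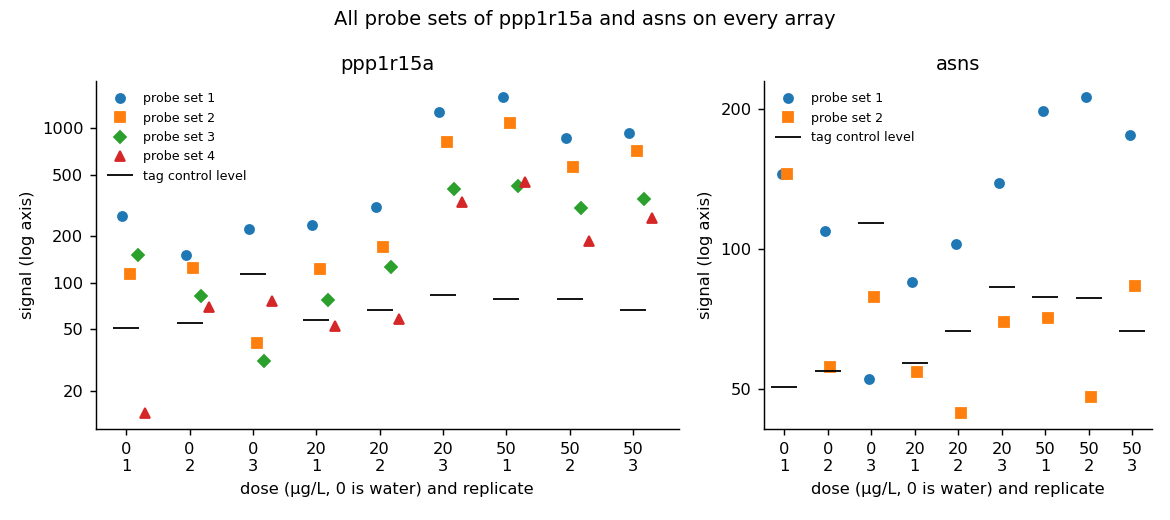
Signals of the 4 probe sets of ppp1r15a (left) and the 2 of asns (right) on each array (log axis), in the order water, 20 µg/L and 50 µg/L, replicates 1 to 3, with a short line at the tag control level of the array. All 4 ppp1r15a probe sets are high on 20 µg/L replicate 3 and on the 50 µg/L arrays, and the dimmer asns probe set lies at or near the tag control level on most arrays.

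The gene mthfd2 encodes a mitochondrial enzyme of one-carbon folate metabolism, also an ATF4 target in mammals. Its signals were 787, 518 and 713 in water, 315, 359 and 221 at 20 µg/L, and 164, 153 and 238 at 50 µg/L. All arrays of both doses were below all water arrays, and the 2 doses overlapped each other. The mean was 185 ± 46.1 at 50 µg/L, against 673 ± 139 in water (SD, n = 3 each), a log2 change of -1.86 (SE 0.31). The 20 µg/L change was -1.18 (SE 0.31), in the same direction on all 3 arrays, which did not pass after adjustment over all probe sets (limma adjusted p = 0.610). Both comparisons use the same water arrays.

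Over the 9 genes, 3 were higher (hsp90b1, hyou1 and ppp1r15a) and 1 lower (mthfd2) past an adjusted p of 0.05 at 50 µg/L, beside 3.79% of 6115 genes higher and 1.18% lower, 4.97% in either direction. This count belongs to the comparison that chose the genes, and with the replicate block it was 2 higher and 1 lower, without hsp90b1. Of the 9, 5 were higher and 2 lower with no overlap between the 50 µg/L and water arrays, against 18.1% and 11.6% of all genes. The median log2 change of the 9 was 1.04, against 0.08 over all genes tested.

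At 20 µg/L against water 0 of the 9 genes passed in limma, against 0.0% of all genes (0 of 6115). This comparison shares its water arrays with the one that chose the genes. At an unadjusted p under 0.05 there were 2 of the 9, hsp90b1 above water and mthfd2 below it, against 7.38% of all genes. By non-overlap 0 were higher and 1, mthfd2, was lower, against 5.28% and 7.13% of all genes. The median log2 change of the 9 was -0.05, equal to the -0.05 over all genes.

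Between the doses, 1 of the 9, hyou1, passed at 50 against 20 µg/L, beside 1.67% of all genes. By non-overlap 3 were higher (hspa5, hyou1 and asns) and 1 lower (atf4b) at 50 µg/L, against 20.3% and 10.8% of all genes. This comparison shares its 50 µg/L arrays with the one that chose the genes, so it is a description.

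The chaperone mean less the mean of ppp1r15a, atf4b, asns and mthfd2 was 1.60, 1.27 and 0.81 on the 50 µg/L arrays, a mean of 1.22 ± 0.39 (SD, n = 3). In water the same difference was -0.48, 0.29 and 0.19 about a mean of 0 (SD 0.42), and at 20 µg/L it was 0.11, 0.27 and 0.17. All 50 µg/L arrays were above all others. The mean of the 4 integrated stress response genes was 0.16 ± 0.12 at 50 µg/L (SD, n = 3). In it ppp1r15a and the brighter probe set of asns, both higher, and atf4b and mthfd2, both lower, largely cancel. Without ppp1r15a, the remaining 3 averaged -0.58 ± 0.13 at 50 µg/L and -0.43 ± 0.06 at 20 µg/L, with a water SD of 0.36 (n = 3 each). These 3 did not share a direction. The log2 changes of mthfd2, atf4b and asns were -1.86, -0.93 and 1.04 at 50 µg/L, and -1.18, -0.27 and 0.18 at 20 µg/L. On water replicates 1 to 3 the mean of the 3 genes was 0.38, -0.05 and -0.33. The lowest water array thus lay just above the highest of the 6 dose arrays, at -0.36.

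**Figure D3:**
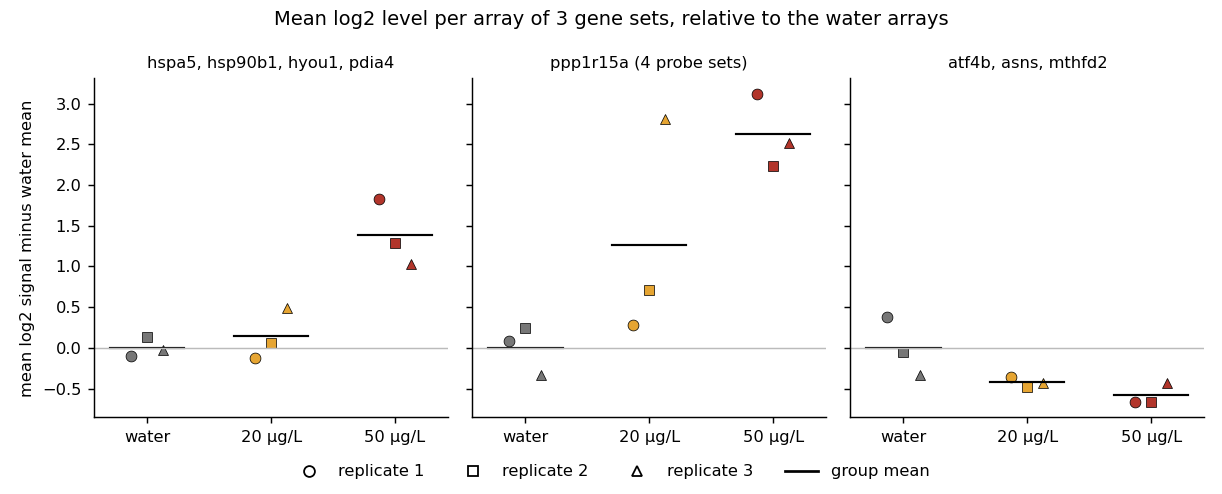
Mean log2 difference from the water mean of the 4 chaperone genes (left), of the 4 ppp1r15a probe sets (middle) and of atf4b, asns and mthfd2 (right), 1 point per array, in the order water, 20 µg/L and 50 µg/L, with a bar at the group mean. The chaperones are high at 50 µg/L, ppp1r15a also on 20 µg/L replicate 3, and the arrays of both doses lie below the water arrays on the right. In that right-hand mean asns, by its brighter probe set, had the opposite sign to atf4b and mthfd2.

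To see how far the rest of each pathway moved, 9 lists from textbook knowledge were counted, with the 9 genes left out. The lists were written with earlier results of these data known. Of 124 genes tested, out of 138 measured and 222 listed, 2 rose, 4 fell and 118 did not pass at 50 µg/L against water (limma, adjusted p under 0.05 over all probe sets), beside 3.79% and 1.18% of all genes. With the replicate number as a block 1 rose (fkbp10b) and 1 fell (cth), against 2.34% and 0.556% of all genes. At an unadjusted p under 0.05 there were 14 higher and 14 lower, against 15.3% and 9.52% of all genes, or 24.8% in either direction. The median log2 change of the 124 was 0.04, against 0.08 over all genes. Between 20 µg/L and water 0 rose and 0 fell in limma, with 4 higher and 12 lower at an unadjusted p under 0.05, against 3.55% and 3.83% of all genes. Between 50 and 20 µg/L 0 rose and 0 fell in limma, beside 1.62% and 0.0491% of all genes, with 21 higher and 12 lower at an unadjusted p under 0.05, against 14.6% and 5.59% of all genes.

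Of the other ER chaperones and folding enzymes, 1 of 25 rose and 0 fell, beside 3.79% and 1.18% of all genes. The mean was higher for 17, against 55.1% of all genes, and the median log2 change of the 25 was 0.41. The gene past the threshold was fkbp10b, for a prolyl isomerase of the ER, with signals of 158, 175 and 161 at 50 µg/L, against 51.7, 26.6 and 10.5 in water. On 2 of the 3 water arrays it was under the tag control level. It passed the filter on low signals only through its 50 µg/L arrays, so its call is no support for the list: its mean log2 signal was 5.50 over the water and 20 µg/L arrays, and the lowest mean kept was 6.08. Its log2 change was 2.69 (SE 0.52, limma adjusted p = 0.0203), and 1.26 with values under that level raised to it. The calreticulin genes calr3a and calr3b, lectin chaperones of the ER, had log2 changes of 0.73 (limma adjusted p = 0.167) and -0.18 (0.837).

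Of 17 genes of ER-associated degradation, which moves misfolded proteins to the proteasome, 1 rose and 0 fell, beside 3.79% and 1.18% of all genes. Their median was 0.30. The mean was higher for 15, against 55.1% of all genes. The gene that rose was syvn1, for the membrane ubiquitin ligase Hrd1. Its signals were 1160.3, 952 and 1098 at 50 µg/L, against 329, 416 and 689.8 in water. The log2 change was 1.23 (SE 0.31, limma adjusted p = 0.0446), and with the replicate block the limma adjusted p was 0.0535.

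Of the list of sensors and transcription factors of the response, 4 genes apart from xbp1 were tested: eif2ak3, creb3l2, mbtps1 and rtcb. Of these 0 passed, with a median of -0.34. The mean was higher for 1, eif2ak3, the gene of Perk, and lower for 3, where 55.1% of all genes had a higher mean. The brightest of the 4 by mean signal was mbtps1, for the site-1 protease that cleaves Atf6, with a log2 change of -0.28 (limma adjusted p = 0.604). Genes of the sensors Ire1 and Atf6 (ern1, atf6 and atf6b) had no probe set of their own on the array and were not measured. Of 21 genes for translocation into the ER and N-glycosylation, 0 rose and 2 fell, beside 3.79% and 1.18% of all genes. The median of the 21 was -0.17. The 2 that fell were srpra, for the signal recognition particle receptor, and spcs1, for a subunit of the signal peptidase complex. For srpra the signals were 369.5, 307 and 336 at 50 µg/L, against 714, 629 and 1206 in water. Its change on the log2 scale was -1.27 (SE 0.29, limma adjusted p = 0.0355, or 0.0558 with the replicate block). For spcs1 they were 884, 1434 and 869.9 at 50 µg/L, against 2246, 2027 and 2069.7 in water. Its change on the log2 scale was -1.03 (SE 0.26, limma adjusted p = 0.0470, or 0.0594 with the replicate block).

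On the integrated stress response side, 0 of 9 genes for eIF2 kinases, eIF2 and its exchange factor eIF2B passed, with a median of -0.21. By non-overlap 0 were higher and 2 lower, against 18.1% and 11.6% of all genes. The only eIF2 kinase gene among the 9 was eif2ak3, already counted with the sensors. The other kinase genes listed, eif2ak1, eif2ak2 and eif2ak4, had no probe set of their own on the array. The count therefore says little about the kinases. The eIF2 subunit genes eif2s1a and eif2s2 had log2 changes of 0.09 (limma adjusted p = 0.908) and -0.46 (0.330). Of 7 other transcription factors and feedback targets 0 passed, with a median of 0.23. Among them, ddit4, an inhibitor of mTORC1 signalling, had a difference of 2.31 on the log2 scale (SE 0.62, limma adjusted p = 0.0541). It was chosen after its values were seen, with 886, 266 and 516 at 50 µg/L and 182, 98.0 and 54.8 in water. Water replicate 3 was under the tag control level, and with values under that level raised to it the difference was 1.97. Like ppp1r15a, ddit4 was high on 20 µg/L replicate 3, at 418, against 104 and 93.9 on the other 20 µg/L arrays.

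Of 18 other enzymes of amino acid and one-carbon metabolism, 0 rose and 1 fell, beside 3.79% and 1.18% of all genes, with a median of 0.06. It was cth, for cystathionine gamma-lyase, which makes cysteine. Its signals were 358, 577 and 513 at 50 µg/L, against 1155, 1239 and 999.8 in water. Its change on the log2 scale was -1.25 (SE 0.27, limma adjusted p = 0.0291). Of 8 amino acid transporters 0 passed, with a median of -0.02. The brightest, slc3a2b and slc7a8a, had log2 changes of -0.08 (limma adjusted p = 0.874) and -0.11 (0.842). Of 16 cytosolic aminoacyl-tRNA synthetases, many of which are ATF4 targets in mammals, 0 rose and 1 fell, beside 3.79% and 1.18% of all genes. Their median was -0.46. The mean was higher for 5 and lower for 11, where 55.1% of all genes had a higher mean. By non-overlap 0 were higher and 7 lower, against 18.1% and 11.6% of all genes. The gene that fell was tars1, for threonyl-tRNA synthetase, with signals of 636, 593 and 667 at 50 µg/L, against 1601, 1304 and 954 in water. Its change on the log2 scale was -0.99 (SE 0.26, limma adjusted p = 0.0490, or 0.0684 with the replicate block).

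These 6 calls lie near the threshold: each was lost without any one of the 50 µg/L arrays, with adjusted p from 0.0523 to 0.199. Without water replicate 1 all but fkbp10b were lost, with adjusted p from 0.0592 to 0.120. Without 20 µg/L replicates 1, 2 and 3, which enter the shared estimate of the spread, 2, 1 and 5 of the 6 still passed, and without water replicate 2 or 3 it was 4.

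**Figure D4:**
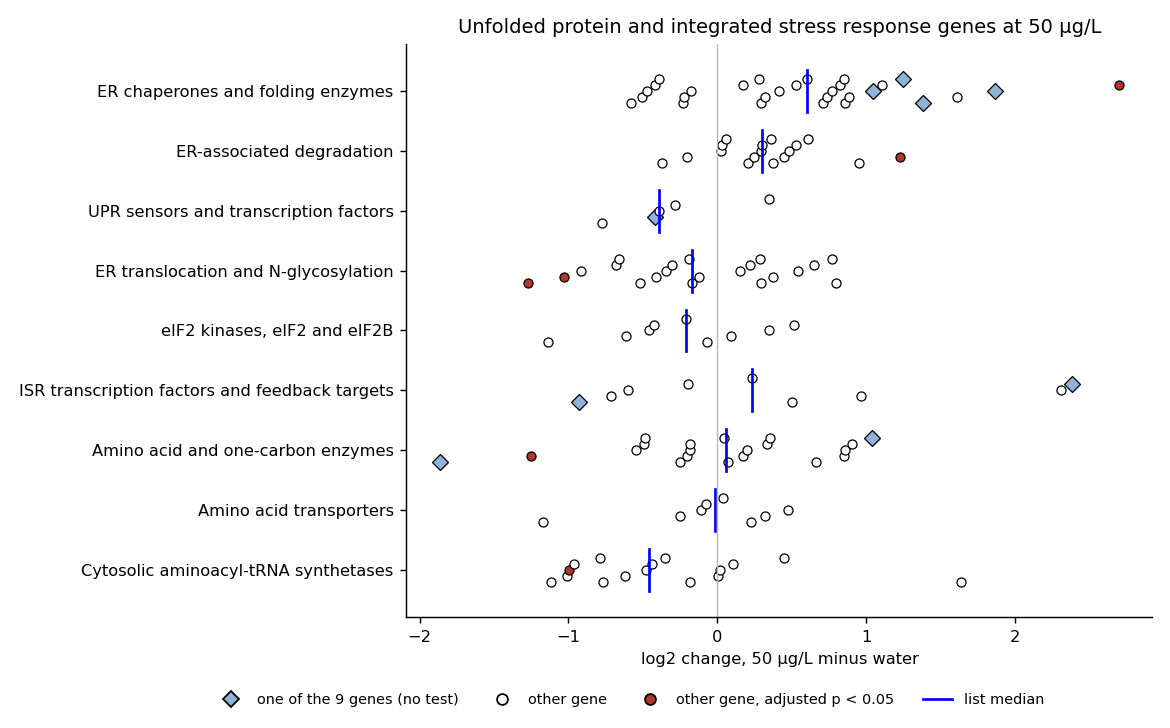
Log2 change at 50 µg/L against water of each measured gene that was tested, by pathway list, with diamonds for the 9 genes, filled circles for other genes past adjusted p 0.05 and a line at the list median, the 9 genes included. Most genes of every list did not pass. Medians of the chaperone, ER-associated degradation, integrated stress response factor and amino acid enzyme lists lie above 0, as does the median over all genes (0.08).

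The genes most like hspa5 over the 9 arrays, by the root mean square difference of mean-centred log2 signals among 6114 genes, were zdhhc18a, spint1b, plcd1b, tspan36 and si:dkey-182i3.10, with differences of 0.18 to 0.20. The nearest of the 9 genes was asns, at rank 248, followed by pdia4 at 578, hyou1 at 1424 and hsp90b1 at 1926. Nearest to ppp1r15a were plod1a, cry4, zgc:173726, wu:fb55g09 and mknk2b, with differences of 0.34 to 0.40. Nearest to mthfd2 were tomm40l, actc1b, pdhb, magi1a and gbx1, with differences of 0.30 to 0.38, and atf4b was at rank 186.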

How the data were processed

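For each array the authors deposited linear intensity values of all probe sets, made with GCOS and MAS5 per the submitters' processing notes (no version is named in the sources used here). The table held 0 columns of other samples. Tests used log2(value + 1), the scale of every fold change. The 115 control probe sets and the 40% of the others with the lowest mean were left out, which kept 9301. All 9 arrays entered 1 fit by lmFit and eBayes (trend) of limma 3.58.1 under R 4.3.3. Group means were contrasted two-sided, and p-values were adjusted by Benjamini-Hochberg across those 9301 with 0.05 as the threshold. The steps were run on simulated arrays in which all probe sets shared the same spread, unlike the real ones, so that run does not give their accuracy here. With 3 arrays a group, precision is low.

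Of the probe sets, 10802 matched 1 gene, 135 several and 4680 none in the platform annotation. The probe set of highest mean stood for its gene. In the ranking of genes most like hspa5, ppp1r15a and mthfd2, the nearest probe set of each other gene was used instead. The 9 genes and all lists were chosen with earlier results of these data known. Named genes are the 9, the genes of each list past the threshold at 50 µg/L (at most 4 in each direction), otherwise the 2 of highest mean, atf4a, calr3a and calr3b, which the rule lists by name, and the 5 nearest to hspa5, ppp1r15a and mthfd2. The genes ddit4, cebpg, chac1 and slc38a2 were added after their values were seen. So were eif2ak3, creb3l2 and rtcb, to show which genes of the sensor list were tested. The main fit has no block. Same-numbered arrays at 50 µg/L and in water had deviations from their group means that correlated at 0.103, 0.233 and 0.103 for numbers 1 to 3. For that comparison, calls are therefore also given from a fit of all 9 arrays with the number as a block. That choice rests on the data and not on the labels. For the other comparisons (correlations of -0.165 to 0.095) the block served only as an alternative. Alternatives were another offset, filter, scaling, treatment of dim values, probe set rule, batch by export format, replicate block, and leaving out each array. The export format sets replicate 3 of every group apart from replicates 1 and 2, which were exported with 1 decimal.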

Additional observations from a re-analysis of the deposited data

How the results depend on the processing

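Of the pathway genes other than the 9, 2 rose and 4 fell at 50 µg/L against water. The 2 became 4 with an offset of 32, with dim values raised or with the mean of all probe sets, and 1 with no filter, with the lowest 60% left out or with quantile normalization. The 4 became 2 with no filter and 2 on the 6 arrays exported with 1 decimal. With the replicate block 1 rose and 1 fell. The block ended the calls of syvn1, srpra, spcs1, tars1, hsp90b1 and the markers zar1, gsc and bmp4, and changed no other call given here. Leaving out 1 array gave 0 to 3 up and 0 to 10 down. At 50 against 20 µg/L, 0 rose and 0 fell, and 1 rose with an offset of 32, with dim values raised or with the mean of all probe sets. On the 6 arrays 14 rose and 4 fell, and leaving out 1 array gave 0 to 3 up and 0 to 1 down. At 20 µg/L 0 pathway genes and 0 of the 9 passed under every alternative run. The chaperone mean less the other mean stayed between 0.98 and 1.53. Changes that turned sign were past no threshold, and all but that of ppp1r15a probe set 3 were small. At 20 µg/L against water, asns (0.18) was -0.19 with dim values raised, -0.43 on the 6 arrays, -0.23 as the mean of probe sets and -0.24 to 0.48 leaving out 1 array. There hspa5 was -0.28 and xbp1 0.19 on the 6 arrays, and ppp1r15a probe set 3 was -0.18. Leaving out 1 array gave -0.14 to 0.31 for hspa5, -0.26 to 0.23 for xbp1, -0.51 to 0.12 for pdia4 and -0.43 to 0.10 for hyou1. With quantile normalization the dimmer asns probe set was -0.058 at 50 against 20 µg/L, and at 50 µg/L against water slc3a2b was 0.18 and slc7a8a 0.048. With the mean of probe sets slc7a8a was 0.30, and eif2s1a was -0.39 on the 6 arrays. Leaving out 1 array gave -0.42 to 0.091 for slc7a8a, -0.35 to 0.081 for slc3a2b, -0.59 to 0.34 for calr3b, -0.58 to 0.081 for mbtps1 and -0.46 to 0.58 for eif2s1a. The cause was not tested in any of these. The change of hyou1 at 50 against 20 µg/L lost its call without any one 50 µg/L array, without 20 µg/L replicate 1 or 2, and with quantile normalization.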

Other observations

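Among genes of the integrated stress response that were picked after their values were seen, cebpg, for a partner of Atf4, stood 0.96 higher on the log2 scale at 50 µg/L than in water (SE 0.34, limma adjusted p = 0.109). The glutathione-degrading enzyme gene chac1 stood 0.50 higher (SE 0.31, limma adjusted p = 0.339). The neutral amino acid transporter gene slc38a2 had a difference of -1.17 (SE 0.35, limma adjusted p = 0.0746), with signals of 267, 369 and 549.8 at 50 µg/L, against 673, 647 and 1435 in water. None of the 3 passed.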
